A study of Mus musculus with 4 samples.

Results

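Heat shock chaperones are the proteins that fold newly made or damaged proteins, and the genes described here encode 10 of them: Hspa1a, Hspa1b, Hspa8, Hsp90aa1, Hsp90ab1, Hspb1, Dnaja1, Dnajb1, Hsph1 and Hspa5. Every probe set (a group of short array oligonucleotides for 1 transcript) that the 2016 platform annotation assigns to a listed gene was taken, which gave 25 of 45037 probe sets that are not controls. They covered 9 of the 10 genes (of 18193 genes named on the array), since no probe set was listed for Hsp90ab1, and none of the 25 was listed with a further gene. RNA was measured on 4 Affymetrix mouse arrays, 2 of Ly49+ and 2 of Ly49- CD8 T cells of wild-type B6 mouse spleen, with replicate numbers 1 and 2 in each group. The Ly49+ cells were sorted as CD44+CD122+Ly49+, called CD8+ Treg in the labels, and the Ly49- cells as CD44+CD122+Ly49-, called the conventional memory type, so that both populations carry the memory markers CD44 and CD122 and differ in Ly49. No treatment is given in the labels, which do not say whether replicates came from separate animals or what a replicate number stands for. Each p-value therefore reflects only scatter among these 4 samples, which may be technical, pooled with the spread of other probe sets. Between replicate numbers, that scatter is only how unlike the gap was in the 2 populations (1 residual degree of freedom).

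Cytosolic HSP70 chaperones bind exposed hydrophobic stretches of client proteins in cycles of ATP hydrolysis that J-domain proteins start and nucleotide exchange factors end, and many clients, among them kinases and steroid receptors, pass on to HSP90. Under heat or other protein-damaging stress the transcription factor HSF1 forms trimers that bind heat shock elements and induce Hspa1a, Hspa1b, Dnajb1 and Hsph1, whereas Hspa8 is made in unstressed cells. Hspa5 encodes BiP, the HSP70 of the endoplasmic reticulum (ER), which is induced through ER stress elements in the unfolded protein response. T cells raise chaperone genes on activation as well as under stress.

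The stretches before the gene starts are shown for the members that differed most between the arrays, Hspa1a, Hspa1b and Hspa5, and for Hsph1, another HSF1 target. Sequences were taken from RefSeq (GRCm38.p6), where 11 promoters of 7 of the 10 genes were matched, and each runs over the 250 bases before the start on the gene's strand. Capitals mark a heat shock element of 2 units (GAANNTTC or TTCNNGAA) in Hspa1a (chr17:34972157-34972406, minus strand), Hspa1b (chr17:34959239-34959488, minus strand) and Hsph1 (chr5:149636337-149636586, minus strand), and the ER stress element (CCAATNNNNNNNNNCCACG) in Hspa5 (chr2:34771840-34772089, plus strand).
Hspa1a: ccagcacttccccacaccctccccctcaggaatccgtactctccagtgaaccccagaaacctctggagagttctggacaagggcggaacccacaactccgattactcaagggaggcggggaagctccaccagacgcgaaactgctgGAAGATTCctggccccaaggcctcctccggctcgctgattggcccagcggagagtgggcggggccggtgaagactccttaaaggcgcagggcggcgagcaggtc
Hspa1b: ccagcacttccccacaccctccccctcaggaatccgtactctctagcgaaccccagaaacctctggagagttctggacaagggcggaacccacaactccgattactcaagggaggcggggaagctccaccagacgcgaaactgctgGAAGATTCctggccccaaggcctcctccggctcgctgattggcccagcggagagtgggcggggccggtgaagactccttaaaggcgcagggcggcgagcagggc
Hsph1: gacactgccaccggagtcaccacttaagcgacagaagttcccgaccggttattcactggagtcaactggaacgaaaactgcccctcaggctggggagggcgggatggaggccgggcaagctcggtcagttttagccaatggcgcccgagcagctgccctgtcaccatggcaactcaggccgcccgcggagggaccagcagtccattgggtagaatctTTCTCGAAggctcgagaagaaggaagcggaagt
Hspa5: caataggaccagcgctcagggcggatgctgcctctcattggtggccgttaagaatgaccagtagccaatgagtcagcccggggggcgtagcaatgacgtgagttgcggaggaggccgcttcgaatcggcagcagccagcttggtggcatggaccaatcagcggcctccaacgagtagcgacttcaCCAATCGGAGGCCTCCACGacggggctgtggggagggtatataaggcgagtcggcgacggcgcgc
The Hspa1a and Hspa1b stretches were identical at 247 of 250 bases, and in both the element lay 104 to 97 bases before the start. The element of Hsph1 lay 33 to 26 bases before the start shown, and 54 to 47 bases before the other Hsph1 start. A 2-unit heat shock element on either strand was found for 5 of the 7 genes (Hspa1a, Hspa1b, Hsph1, Hspb1 and 1 of the Dnaja1 promoters), and for 14.5% of all 27025 genes with a promoter of this length (12.8% of 32851 promoters). The longer form of 3 units (GAANNTTCNNGAA or TTCNNGAANNTTC) was in none of the members' promoters and in 0.466% of all. Hspa5 held the ER stress element 65 to 47 bases before the start, a match found in 0.113% of all promoters, and its CCAAT overlaps 1 of 4 CCAAT boxes (CCAAT, either strand) there, a box that 33.8% of promoters hold. Hspa5 also held a TATA box (TATAA, either strand) at 26 to 22 bases, as did 22.8% of promoters. A match is a run of letters and was not tested for binding.

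Deposited values were linear intensities with array medians of 188.5 to 190.4. Precision is limited by the 4 arrays. As a check of the sort, Cd8a read 18009 and 18363 in Ly49+ and 19070 and 18793 in Ly49- cells, and Cd4 read 133 and 148 against 147 and 140. The 8 measured CD8 T-cell markers summed to between 134671 and 136922 on the 4 arrays. Of 13 myeloid markers, 11 were called higher in Ly49+ cells, where 0.766% of all probe sets were. The 13 summed to 23770 and 26707 in Ly49+ and 15723 and 15741 in Ly49- cells. Between replicate numbers 0 of 13 passed (0 also at an unadjusted p under 0.05, limma). The 3' to 5' ratio of the Gapdh control probe sets lay between 1.70 and 1.75. The Ly49- replicate 1 array stood apart in its 9 older hybridisation controls, which read at 0.217 to 0.704 of the mean of the other arrays, but not in the 9 newer (r2) ones, at 0.958 to 1.06. The highest bacterial control read 70.3, a level below which a probe set is called dim here.

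No chaperone probe set differed past the threshold between Ly49+ and Ly49- cells. With limma on log2(intensity + 16), 0 of 25 had an adjusted p under 0.05 and 1 an unadjusted p under 0.05, where 538 of all 45037 probe sets (1.19%) were called, 0.766% higher and 0.429% lower in Ly49+ cells. An unadjusted p under 0.05 was found for 13.3% of all probe sets. The median difference of the 25 was 0.01 on the log2 scale, from -0.11 to 0.23, beside -0.03 for all probe sets. Between replicate numbers, some of the chaperones differed. With the group as a further term, 6 of 25 probe sets, those of Hspa1a and Hspa1b and 2 of Hspa5, were called higher in replicate 1 and 0 lower, where 420 of all probe sets (0.933%) were called, 412 of them higher (0.915%) and 8 lower (0.0178%). An unadjusted p under 0.05 was found for 12 of 25, beside 7.81% of all, and a mean difference above 0 for 24 of 25, beside 50.2%. The median difference between replicate numbers was 0.17, beside 0.00035 for all probe sets. In bulk RNA of this kind, fewer cells that express a gene and less of its RNA per cell cannot be told apart.

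These replicate calls depended on the model of the spread. Without a trend of the spread on the level, or without the group term, 0 of 25 probe sets passed, with 9 and 10 at an unadjusted p under 0.05, and over all probe sets only 16 and 26 passed. Both of these fits gave the same differences as before, and what moved was the error around them. Both replicate 1 arrays lay above both replicate 2 arrays for 19 of the 25 probe sets (76%), beside 16.3% of all, and below them for 1 (Hspb1), beside 13.1% (29.5% of all in either direction). Within Ly49+ cells and within Ly49- cells alike, replicate 1 was the higher array for 22 of 25, beside 27% of all probe sets, and the sign was shared for 23, beside 52.6%. The 25 probe sets are not independent readings, since up to 5 belong to 1 gene and some share target sequence.

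**Figure D1:**
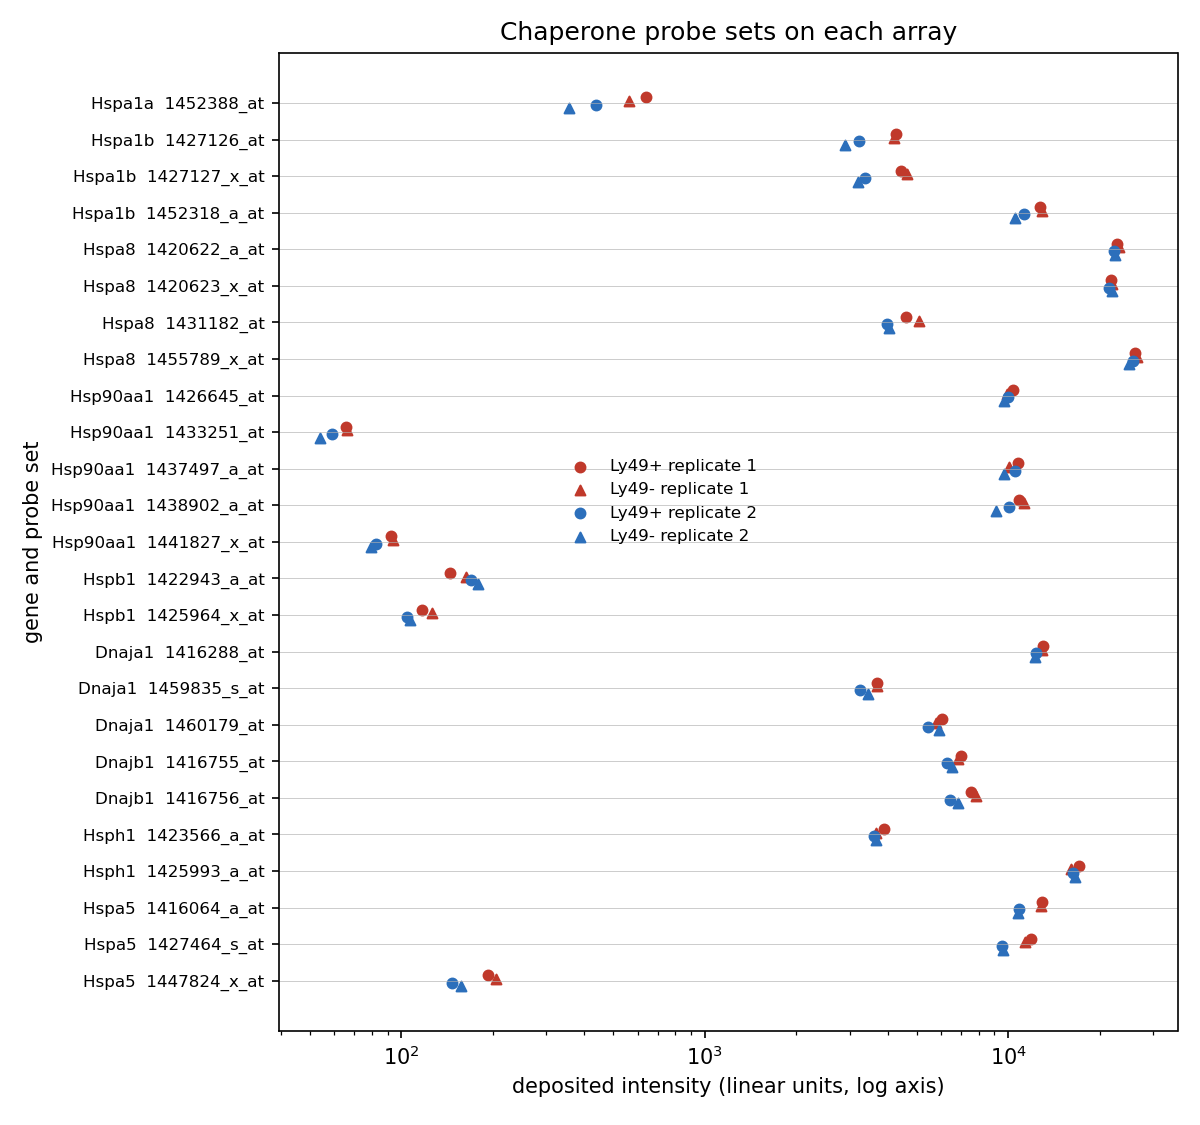
Intensity (linear units, log axis) of each of the 25 probe sets on each array, with circles for Ly49+ and triangles for Ly49- cells, red for replicate 1 and blue for replicate 2. Red and blue separate for Hspa1a, Hspa1b and Hspa5, whereas circles and triangles of a colour lie close together.

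Hspa1a and Hspa1b are the stress-inducible cytosolic HSP70 genes. The Hspa1a probe set and 2 of 3 Hspa1b probe sets moved most between replicate numbers. The coding regions of Hspa1a and Hspa1b are nearly identical, so a probe set named for either may read both. The Hspa1a probe set (1452388_at) read 639 and 562 on the Ly49+ and Ly49- arrays of replicate 1 and 437 and 357 on those of replicate 2. The replicate 1 arrays were thus the 2 highest, and the Ly49+ array was the higher of each number. Its level was 49.7% higher in replicate 1 (log2 difference 0.58 ± 0.10 SE, limma adjusted p = 0.0315; folds here are on the log2(intensity + 16) scale). Between Ly49+ and Ly49- cells it differed by 0.23, with a 95% interval of -0.33 to 0.79 (adjusted p = 0.73), an interval that spans both directions. The fit between populations has no replicate term, so the gap between replicate numbers widens this interval and those of Hspa1b and Hspa5. Within replicate 1 and replicate 2 the Hspa1a difference was 0.18 and 0.28, and with a replicate block its limma adjusted p was 0.30.

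Hspa1b was read by 3 probe sets. The first (1427126_at) gave 4282 and 4216 on the Ly49+ and Ly49- arrays of replicate 1 against 3226 and 2901 on those of replicate 2, a 1.39-fold difference (log2 0.47 ± 0.06 SE, limma adjusted p = 0.00446). The next (1427127_x_at) gave 4446 and 4647 against 3374 and 3197, 1.38-fold (adjusted p = 0.00453). The brightest (1452318_a_at) gave 12756 and 12877 against 11295 and 10489, 1.18-fold (log2 0.24 ± 0.04 SE, adjusted p = 0.0363). All 3 therefore put both replicate 1 arrays above both replicate 2 arrays, with a larger ratio in the dimmer pair. Differences between Ly49+ and Ly49- cells were 0.09, 0.01 and 0.05, with 95% intervals of -0.35 to 0.53, -0.43 to 0.44 and -0.18 to 0.28.

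Hspa5, the ER chaperone BiP, differed less than Hspa1a and the dimmer Hspa1b pair, but more than the brightest Hspa1b probe set. Its main probe set (1416064_a_at) read 12935 and 12832 on the Ly49+ and Ly49- arrays of replicate 1 and 10814 and 10752 on those of replicate 2. The populations were nearly level within each number, and replicate 1 was 1.19-fold higher (log2 0.26 ± 0.04 SE, limma adjusted p = 0.0116). A further probe set (1427464_s_at) read 11915 and 11383 against 9524 and 9624, 1.22-fold (log2 0.28 ± 0.04 SE, adjusted p = 0.0112). The probe set 1447824_x_at, at 193 and 205 against 147 and 157, gave 0.36 ± 0.12 SE and did not pass (adjusted p = 0.44). Against Ly49- cells, Ly49+ cells differed by 0.01, 0.03 and -0.08 for these probe sets, with 95% intervals of -0.23 to 0.25, -0.24 to 0.29 and -0.49 to 0.32.

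J-domain proteins hand clients to HSP70 and start its ATP cycle. Dnajb1, the HSF1 target among them, read 7548 and 7852 on the replicate 1 arrays of Ly49+ and Ly49- cells and 6444 and 6807 on those of replicate 2 (1416756_at). The replicate 1 arrays were the higher 2, by 0.22 ± 0.04 SE on the log2 scale, and the adjusted p of limma was 0.0694. The other Dnajb1 probe set (1416755_at) gave 7011 and 6855 against 6297 and 6542, a difference of 0.11 (adjusted p = 0.61). Dnaja1, a constitutive J-domain protein that is also heat inducible, read 12996 and 12959 against 12330 and 12291 on its brightest probe set (1416288_at), a difference of 0.08 with an adjusted p of 0.68. Its remaining probe sets gave 0.15 (1459835_s_at) and 0.06 (1460179_at), and for the latter the Ly49- arrays ran the other way, at 5775 in replicate 1 and 5931 in replicate 2. Between Ly49+ and Ly49- cells the 5 J-domain probe sets differed by -0.07 to 0.00, all with an adjusted p of at least 0.80.

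Hsp90aa1 encodes the inducible cytosolic HSP90, and its 5 probe sets differed among themselves. The brightest on average (1438902_a_at) read 10832 and 11276 on the Ly49+ and Ly49- arrays of replicate 1 and 10067 and 9117 on those of replicate 2, a difference of 0.21 ± 0.05 SE (limma adjusted p = 0.16). The other bright ones hardly moved, at 0.05 (1426645_at) and 0.04 (1437497_a_at). On those the populations separated instead. Probe set 1437497_a_at read 10741 and 10498 in Ly49+ cells and 10043 and 9700 in Ly49- cells, with no overlap, and its difference of 0.11 (95% interval 0.01 to 0.20) was the 1 among the members with an unadjusted p under 0.05 (adjusted p = 0.32). Probe set 1426645_at read 10395 and 10001 against 9923 and 9679, also without overlap (0.06, adjusted p = 0.60). Non-overlapping populations were found for 3 member probe sets, these 2 and 1 of Hspa8 (1420623_x_at, -0.02). That is 12% of the 25, beside 44.9% of all probe sets (15.7% higher and 29.1% lower in Ly49+ cells). Of the 2 low Hsp90aa1 probe sets, 1433251_at (53.9 to 66.0) was dim by the control level and 1441827_x_at (79.2 to 93.5) lay just above it.

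Hspa8, the constitutive HSC70, was read at high and steady levels by 3 probe sets. Its brightest (1455789_x_at) read 26195 and 26498 on the Ly49+ and Ly49- arrays of replicate 1 and 25845 and 25074 on those of replicate 2, a difference of 0.05 (95% interval -0.02 to 0.12, limma adjusted p = 0.80). The other bright ones, 1420622_a_at and 1420623_x_at, gave 0.04 and 0.01. The fourth, 1431182_at, read 4599 and 5099 against 3981 and 4045 and gave 0.27 ± 0.05 SE, which missed the threshold (adjusted p = 0.0699). For the 3 bright probe sets the 95% interval between Ly49+ and Ly49- cells lay within -0.10 to 0.10. For 1431182_at the difference between the populations was -0.09, with a wider interval of -0.36 to 0.19.

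Hsph1 encodes HSP105, which exchanges nucleotide on HSP70. Its bright probe set (1425993_a_at) read 17137 and 16039 on the Ly49+ and Ly49- arrays of replicate 1 and 16301 and 16568 on those of replicate 2, and the numbers overlapped (difference 0.01, 95% interval -0.07 to 0.10, limma adjusted p = 0.98). The dimmer one (1423566_a_at) gave 0.05, with 3884 and 3679 against 3600 and 3677. On it both replicate 1 arrays lay above both replicate 2 arrays. Hspb1, the small heat shock protein HSP27 that holds unfolded proteins without using ATP, was read at 105 to 179. Its 2 probe sets opposed each other, at -0.17 (1422943_a_at) and 0.18 (1425964_x_at), and neither passed (adjusted p = 0.85 and 0.82).

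**Figure D2:**
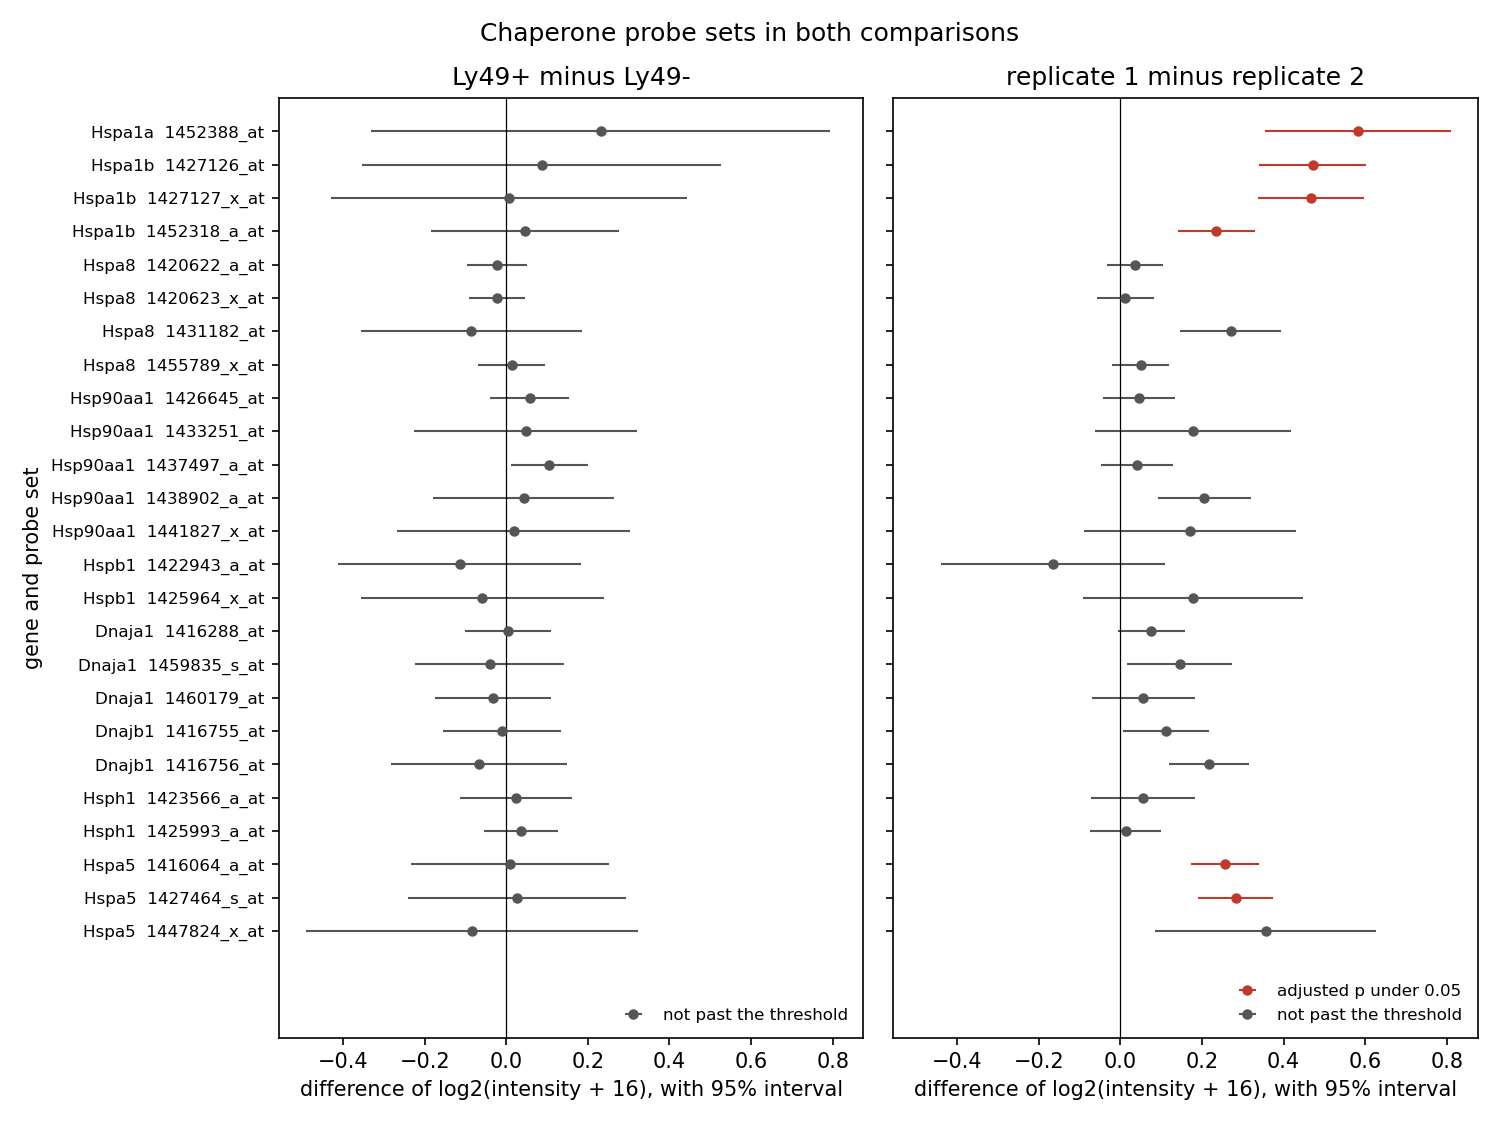
Difference of log2(intensity + 16) for each of the 25 probe sets, Ly49+ minus Ly49- on the left and replicate 1 minus replicate 2 on the right, with 95% intervals from limma and red for an adjusted p under 0.05. On the left 24 of the intervals span 0, and on the right the 6 red probe sets of Hspa1a, Hspa1b and Hspa5 lie between 0.24 and 0.58.

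The wider chaperone network was read through lists of related genes, with the brightest probe set of each gene. With group alone in the fit, no gene of the 7 lists passed between Ly49+ and Ly49- cells (limma, 0 of 122 at an adjusted p under 0.05). An unadjusted p under 0.05 was found for 20, beside 13.3% of all probe sets. With a replicate block 7 of the 122 passed, 6 higher in Ly49+ cells and 1 lower, where 1415 of all 45037 probe sets passed. In the fit without the block Pdia3, an ER disulfide isomerase, came nearest, at 7423 and 7877 in Ly49+ and 9156 and 8804 in Ly49- cells (difference -0.23, adjusted p = 0.0890). It passed when only 1 probe set per gene was tested (adjusted p = 0.0263). List medians lay between -0.10 for the co-chaperones of HSP70 and HSP90 and 0.12 for the immediate-early genes, beside -0.03 for all probe sets.

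Between replicate numbers, most chaperone lists stayed level. Of 24 J-domain genes besides the members, 2 were higher in replicate 1, 0 lower and 22 did not pass, with a list median of -0.02, where 0.915% of all probe sets were called higher. Neither was called without a trend or without the group term. Dnajb9, an ER J-domain partner of BiP, read 7134 and 6061 on the Ly49+ and Ly49- arrays of replicate 1 and 4198 and 3484 on those of replicate 2, 1.72-fold higher (log2 0.78 ± 0.05 SE, limma adjusted p = 8.69e-05). Dnajb4, a cytosolic J-domain protein, read 2187 and 1710 against 1290 and 1263, 1.51-fold (adjusted p = 0.0130). At 0.78 and 0.59 on the log2 scale they stood beside 0.58 for Hspa1a, the member with the largest value.

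Of 22 genes of ER folding and the unfolded protein response, 2 were higher in replicate 1, where 0.915% of all probe sets were called higher. Lower were 0, and 20 did not pass, with a median of 0.03. Neither of the 2 was called without a trend or without the group term. Xbp1, the transcription factor whose mRNA is spliced by the ER stress sensor IRE1, read 1869 and 1778 against 1375 and 1376 (0.40 ± 0.07 SE, limma adjusted p = 0.0334). Atf4, the factor translated when the kinase PERK is active, read 15346 and 14795 against 12957 and 12917 (0.22 ± 0.04 SE, adjusted p = 0.0237). Ddit3 and Herpud1 gave 0.22 and 0.20 but did not pass (limma adjusted p = 0.17 and 0.28). An unadjusted p under 0.05 was found for 4 of the 22, beside 7.81% of all probe sets. Other genes of the list gave smaller values than Hspa5, such as 0.13 for Sdf2l1, 0.09 for Hsp90b1, 0.09 for Hyou1, 0.06 for Calr and -0.05 for Pdia6, none past the threshold.

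No gene passed between replicate numbers among 4 genes of HSF factors and the HSF-binding protein Hsbp1 (0 at an unadjusted p under 0.05), 16 further HSP70, HSP110 and small heat shock genes (1), 19 co-chaperones of HSP70 and HSP90 (0) and 17 chaperonin and mitochondrial chaperone genes (1). Their medians were -0.02, 0.01, -0.04 and -0.02. Of all probe sets, 7.81% had an unadjusted p under 0.05. The smallest p among these lists belonged to Clpx (-0.20, limma adjusted p = 0.55), a mitochondrial unfoldase, and to Hspa2 (0.39, adjusted p = 0.35), an HSP70 best known from the testis. Tcp1 and Cct7 of the cytosolic chaperonin differed by -0.02 and -0.06. Hsf2, Hsf5, Hspa1l, Hspa12b, Hspb7 and Cryab were dim by the control level on every array, so the lack of a call says little about them. Hsf1 itself, along with Ptges3, Ppid and Dnajc19, is not listed in the annotation and was not analysed here.

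Genes listed here as immediate-early, many of which lymphocytes transcribe within minutes of stimulation, were mostly higher in replicate 1 on the same arrays. Their part in the chaperone differences was not tested. Of 20 genes, 15 were higher in replicate 1, 0 lower and 5 did not pass, with a median of 0.48. Over all probe sets 0.915% were called higher and 0.0178% lower. Nr4a1 read 5683 and 4770 on the Ly49+ and Ly49- arrays of replicate 1 and 1887 and 1559 on those of replicate 2 (1.59, limma adjusted p = 6.04e-06). Egr1 differed by 1.05, Fosb by 1.52 and Atf3 by 1.97 (adjusted p of 8.43e-06, 8.76e-06 and 4.09e-05). In the fit without a trend 2 of these 20 genes passed, and 3 without the group term, where 16 and 26 of all probe sets passed.

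**Figure D3:**
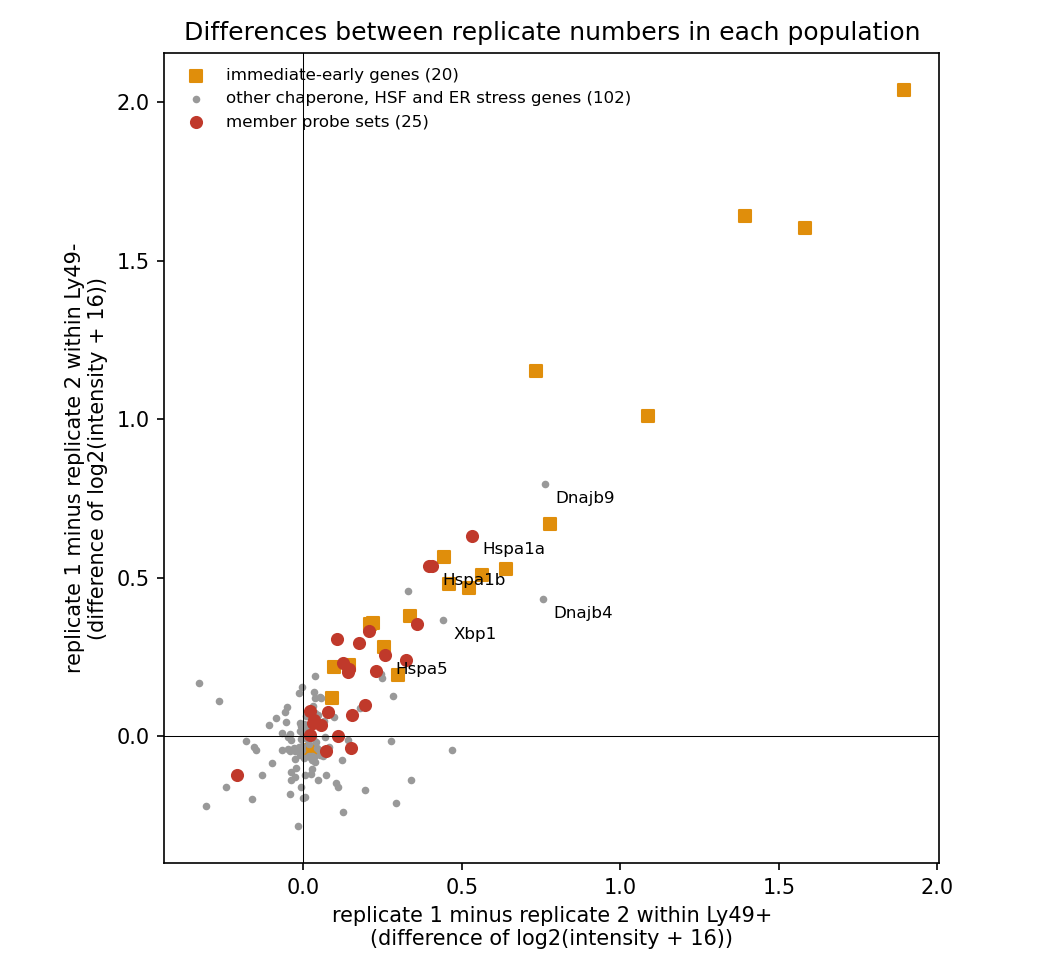
Difference of replicate 1 minus replicate 2 in log2(intensity + 16) within Ly49+ cells (horizontal) and within Ly49- cells (vertical), for the 25 member probe sets (red), 20 immediate-early genes (orange squares) and 102 further chaperone, HSF and ER stress genes (grey). Hspa1a lies at 0.53 and 0.63 and Dnajb9 at 0.76 and 0.80, among the immediate-early genes, while most grey points lie around 0.

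**Figure D4:**
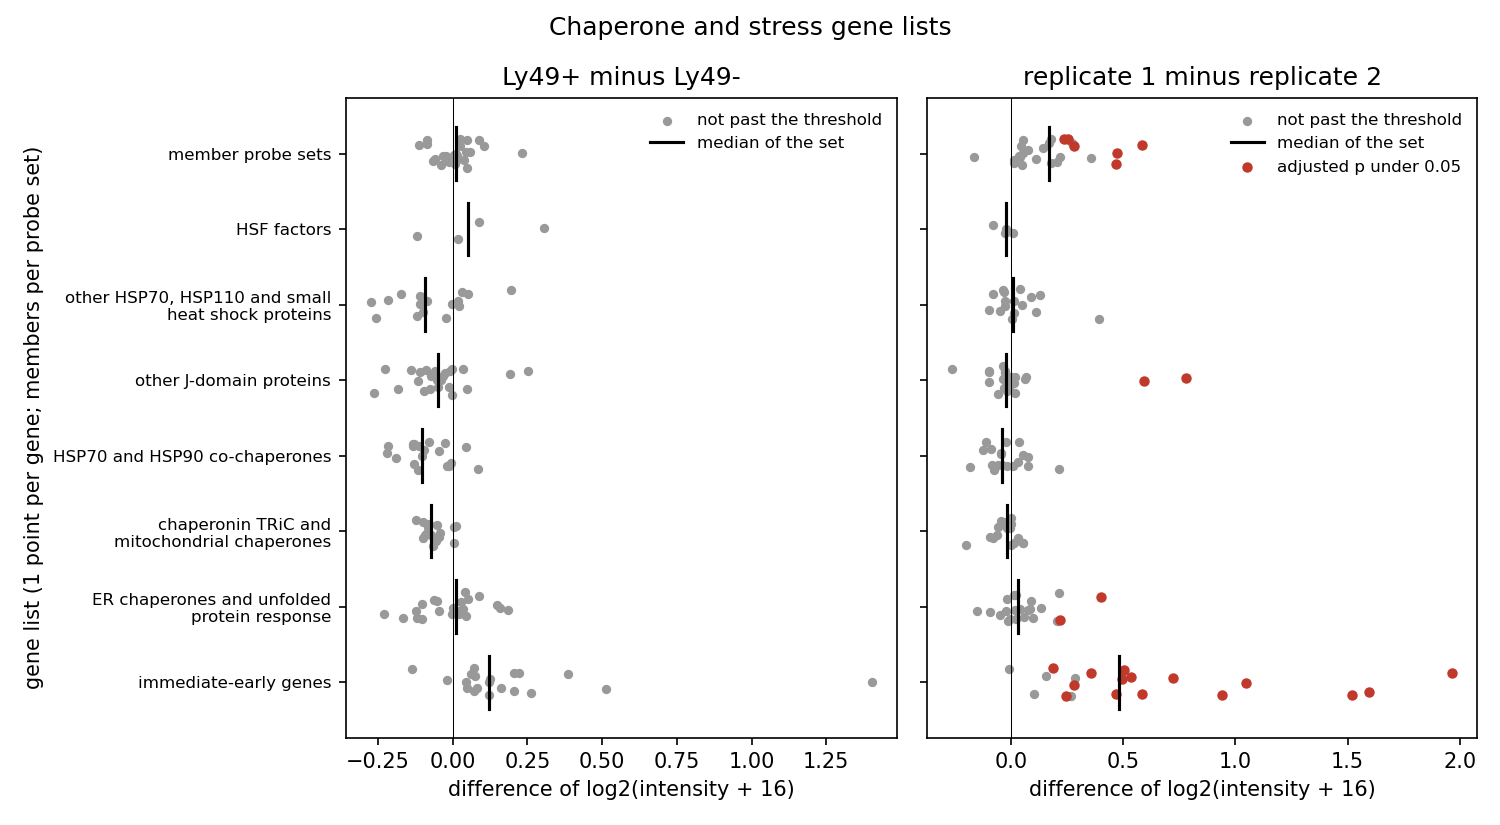
Difference of log2(intensity + 16) for each gene of the 7 lists and each of the 25 member probe sets, Ly49+ minus Ly49- on the left and replicate 1 minus replicate 2 on the right, with black bars at the medians and red points for an adjusted p under 0.05. Red points occur on the right, among the members, the J-domain proteins, the ER genes and the immediate-early genes, with member and immediate-early medians of 0.17 and 0.48.

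Likeness over the 4 arrays was measured as the root mean square difference between profiles of log2(intensity + 16), each centred on its own mean. It was ranked over 9926 genes with a mean intensity over 200, from which the members had been left out. The 5 genes nearest to the brightest Hspa1b probe set were Dr1 (0.0072), Bicra (0.014), Jazf1 (0.016), Med12l (0.017) and Zfp326 (0.018). For the brightest Hsp90aa1 probe set they were Map3k12 (0.011), Mzt1 (0.011), 4932431P20Rik (0.013), Zbtb38 (0.013) and Bicra (0.013). Dr1, a subunit of the transcription repressor NC2, read 4164 and 4255 on the Ly49+ and Ly49- arrays of replicate 1 and 3690 and 3451 on those of replicate 2. With 4 arrays many genes share such a profile. No gene of the chaperone lists was among the nearest 5 of either, and the members could not be, since they were not ranked.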

How the data were processed

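Total RNA of sorted splenic CD8 T cells was extracted (RNeasy) and labelled with biotin following the Affymetrix protocol, per the labels. The deposited values are linear intensities, 1 per probe set (8.32 to 43959), a scale taken from their range, and quartiles of the arrays lie within 0.042 (log2) of each other. How the authors summarised and normalized them: not given in the sources used here. Groups and replicate numbers came from the sample titles.

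All 45037 probe sets that are not controls were tested on log2(intensity + 16) with limma 3.58.1 in R 4.3.3 (lmFit, eBayes with a trend), with Benjamini-Hochberg adjustment over all of them and a threshold of 0.05. The group fit had group alone (2 residual and 5.05 prior degrees of freedom), and the replicate fit group and replicate number (1 residual and 8.36 prior). No cut on low values was made, so all 25 probe sets were tested. Of these, 16 have names ending in _x_at, _s_at or _a_at. They were set aside together as open to cross-hybridisation in 1 alternative, though not every such name, _a_at above all, marks a match to another gene. Files were read with the R package data.table (1.17.8) and plotted with matplotlib 3.10.9 and pandas 2.3.3 in Python 3.11.15, and the fits were tested on simulated data. Every member probe set is named, and of each list up to 4 genes past the threshold per comparison, or the 2 with the smallest p; further genes were chosen after their values were seen. Members, lists and tests were chosen with earlier results of these data known. The B-cell, dendritic-cell, NK-cell and erythroid marker lists had 0, 1, 4 and 0 genes higher in Ly49+ cells and 0 lower, and between replicate numbers 0, 0, 1 and 0 genes, the 1 being lower in replicate 1. The 4 NK-cell genes were Klra8, itself a Ly49 gene and so tied to the sort, Klre1, Tyrobp and Fcer1g. Ncr1 (dim by the control level), Prf1, Eomes and Gzma differed by -0.0025, -0.08, 0.14 and -0.95, none past the threshold. Of all probe sets, 0.766% were called higher in Ly49+ cells, and 0.0178% lower in replicate 1. Alternatives were quantile normalization, other pseudocounts, brighter probe sets, 1 probe set per gene, other models of the spread, a replicate block, another threshold and leaving out arrays.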

Additional observations from a re-analysis of the deposited data

Results flagged for a closer look

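For 2 probe sets the difference between replicate numbers had opposite signs in the 2 populations, with 1 array on each side, and this was not tested. Dnaja1 (1460179_at) differed by 0.15 within Ly49+ and by -0.04 within Ly49- cells, a gap of 0.19 on the log2 scale. Hsph1 (1425993_a_at) differed by 0.07 and -0.05, a gap of 0.12. Neither passed the limma test between replicate numbers (adjusted p = 0.90 and 0.98).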

How the results depend on the processing

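No member probe set differed past the threshold between Ly49+ and Ly49- cells under any of 14 alternatives, where the main limma fit called 538 of all probe sets. The direction of 20 of the 25 differences changed with the array left out, ranging, per probe set in the order of the plots, over Hspa1a -0.085 to 0.55, Hspa1b -0.18 to 0.36, -0.26 to 0.28, -0.10 to 0.19, Hspa8 -0.25 to 0.081, -0.026 to 0.053, Hsp90aa1 -0.068 to 0.16, -0.11 to 0.20, -0.083 to 0.12; Hspb1 -0.16 to 0.046, Dnaja1 -0.034 to 0.042, -0.14 to 0.056, -0.11 to 0.044, Dnajb1 -0.089 to 0.066, -0.18 to 0.046, Hsph1 -0.031 to 0.078, -8.2e-07 to 0.072, Hspa5 -0.12 to 0.14, -0.14 to 0.19, -0.26 to 0.095. Leaving out 1 array leaves the replicate numbers unequal between the groups, so the difference between numbers enters these values. A changed sign therefore need not mean that the populations differed in direction within a number. Hspa1a was higher in Ly49+ cells within replicate 1 and within replicate 2, by 0.18 and 0.28. After quantile normalization the sign turned for Dnajb1 1416755_at between populations (0.0036) and for Hspa8 1420623_x_at (-0.015) and Hsph1 1425993_a_at (-0.011) between replicate numbers. With 1 probe set per gene, 1 ER gene, Pdia3, was called between populations (-0.23, adjusted p = 0.0263).

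Between replicate numbers, 6 member probe sets were called, and 4 to 8 under quantile normalization, other pseudocounts, brighter probe sets, 1 probe set per gene, a robust spread or an adjusted p under 0.1. The count was 2 without all probe sets named _x_at, _s_at or _a_at, where fewer are tested, 0 without a trend and 0 with replicate number alone. With replicate number alone and 1 array left out, chosen after seeing the data, it was 0 in each case (6 to 9 at an unadjusted p under 0.05), where 0 to 16 of all probe sets passed. A fit with both terms leaves no residual degree of freedom without 1 array. Also added after seeing the data, fits without a trend called 0 J-domain, 0 ER and 2 immediate-early genes, and with replicate number alone 0, 0 and 3. Over all probe sets these fits called 16 and 26. The cause was not tested. With a replicate block, 0 member probe sets were called between populations, and 1415 in place of 538 of all. Of the 122 list genes it called 7 in place of 0 (5 immediate-early, 1 J-domain and 1 ER gene), which was added after seeing the data: Atf3, Fosb, Egr3, Btg2, Nr4a1 and Dnajb9 higher in Ly49+ cells and Pdia3 lower (adjusted p of 0.00025, 0.0030, 0.034, 0.041, 0.043, 0.027 and 0.034, limma). Same-numbered arrays deviated together with r = 0.24 across all probe sets and 0.36 across the brighter 22518, but 2 pairs do not establish a pairing.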
